A study of Macaca fascicularis with 1154 samples.

Results

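Cells with a clear signal for 1 gene ID, ENSMFAG00000001837, were compared with cells of the same collections in which that ID had no counts. The cells came from embryos of the cynomolgus monkey (Macaca fascicularis) kept in culture, and each sample was 1 cell picked by hand after trypsin digestion. A collection here is the set of cells whose titles share a day and a B number, from day 9 to day 20, with no treatment or genotype in the labels. A cell was kept with at least 100000 counts and 2000 detected IDs, and it was called positive at 10 or more CPM (counts scaled to 1000000 per cell) of the ID and negative at 0 counts. By this rule 68 of 593 kept cells were positive (11.5%), 402 were negative, and 123 lay above 0 and under 10 CPM and are called low cells.

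Nothing in the labels ties a collection to its own embryo or culture, and p-values therefore cover the spread between collections alone, part of which may be technical. Titles in E13 B1 carry an added pe and titles in E17 B1 an added p, with no meaning given. Of the 1154 samples in the series 600 had a column of counts, 7 of these fell under the minimums, and the other 554 samples were not analysed here. Total counts of kept cells ran from 107155 to 18828705, with a median of 2660370. No 2 columns held the same values.

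An embryo that develops past the stage of implantation sets apart the epiblast, which forms the body, from trophoblast, hypoblast and its yolk sac derivatives, amnion and extraembryonic mesenchyme. Such lineages are usually told apart by genes that are on in some cells and off in others. SMART-seq2 reads full-length transcripts of single cells and gives high counts per cell, but it has no molecular identifiers, so PCR copies are counted too. Intervals below are for shares of cells and cover error from the number of cells only. The files do not pair IDs with gene names, and 0 of 28592 IDs matched the RefSeq gene table given with the data. No cell type is therefore given to the positive cells, their label could not be checked against lineage markers, and IDs are printed as deposited.

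The level of the gating ID is a description, since it chose the cells. In positive cells it ran from 10.1 to 2095 CPM with a median of 95.1, and the middle 50% of cells lay between 36.2 and 219 CPM. Of the 68 positive cells 34 were at 100 CPM or more. The cells nearest the threshold were at 10.1, 10.6 and 10.7 CPM inside it and at 8.61, 8.55 and 8.30 CPM outside it. Few cells lay there, with 9 positive cells between 10 and 20 CPM and 12 low cells between 5 and 10 CPM. Most low cells were far below the threshold: their median was 0.962 CPM and 67 of the 123 lay under 1 CPM. In the positive cell with the fewest counts of the ID, the call rested on 3 counts.

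**Figure D1:**
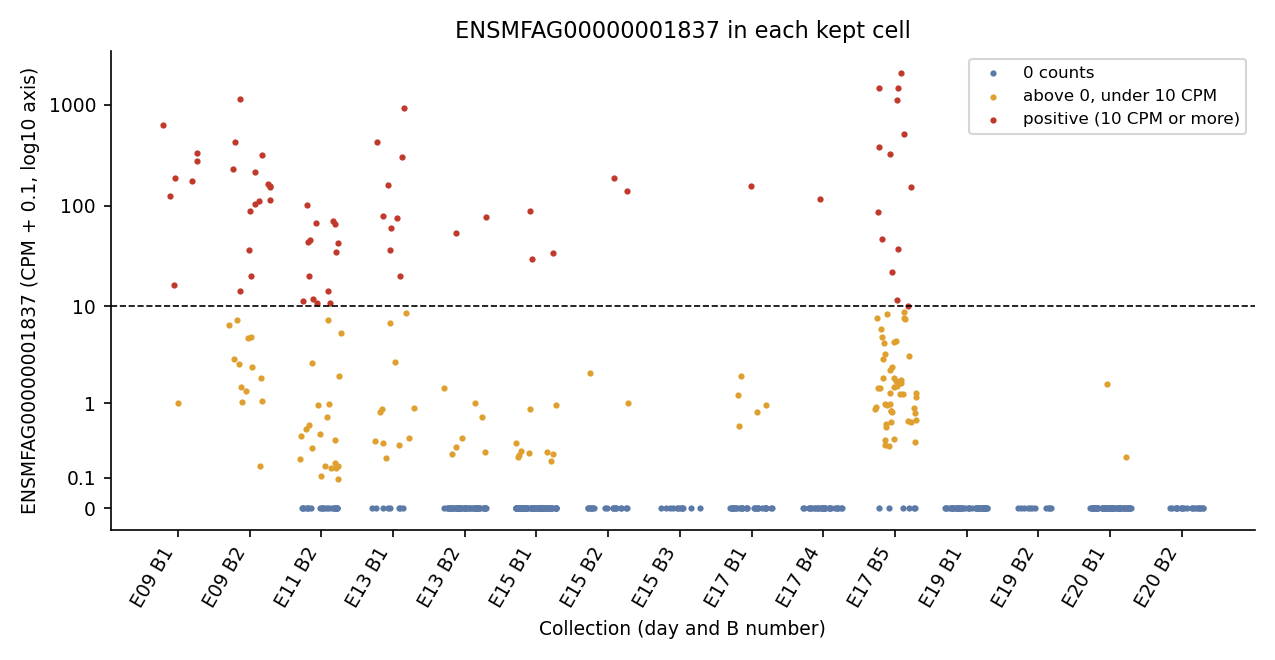
Level of ENSMFAG00000001837 in each of the 593 kept cells (y axis: CPM + 0.1 on a log10 axis) by collection (x axis), each point 1 cell, with the dashed line at 10 CPM. Positive cells reach 2095 CPM in E17 B5 and are missing from E15 B3, E19 B1, E19 B2, E20 B1 and E20 B2.

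Positive cells were found in 10 of 15 collections, and their share was highest at day 9. In E09 B1, 7 of 8 kept cells were positive (87.5%, 95% Clopper-Pearson interval 47.3 to 99.7%), and in E09 B2 15 of 28 (53.6%, 33.9 to 72.5%). No kept cell of day 9 was at 0, so neither of these collections could enter the comparison. The share was 24.6% in E11 B2 (14 of 57 cells, interval 14.1 to 37.8%), 32.1% in E13 B1 (9 of 28, 15.9 to 52.4%) and 19.7% in E17 B5 (14 of 71, 11.2 to 30.9%). These 5 collections held 97 of the 123 low cells (78.9%).

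A further 5 collections held from 1 to 3 positive cells each. There were 2 of 66 in E13 B2 (3.03%), 3 of 87 in E15 B1 (3.45%), 2 of 22 in E15 B2 (9.09%), 1 of 37 in E17 B1 (2.70%) and 1 of 31 in E17 B4 (3.23%). The intervals, which cover counting error only, were 0.369 to 10.5% in E13 B2, 0.0684 to 14.2% in E17 B1 and 0.0816 to 16.7% in E17 B4. Collections of 1 day thus spanned a range of shares, from 3.03 to 32.1% at day 13 and from 2.70 to 19.7% at day 17. The other 5 collections, with 158 kept cells, held no positive cell and 2 low cells, both in E20 B1. A count of 0, taken to allow 3 cells of the total, allows a share of up to 5.88% in E19 B1 (51 cells), 4.76% in E20 B1 (63 cells), 14.3% in E20 B2 (21 cells), 25.0% in E15 B3 (12 cells) and 27.3% in E19 B2 (11 cells). The upper Clopper-Pearson limits of these 5 are higher, from 5.69% in E20 B1 to 28.5% in E19 B2. Since a person chose each cell under the microscope, these shares may reflect that choice, and no test against the day was made.

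**Figure D2:**
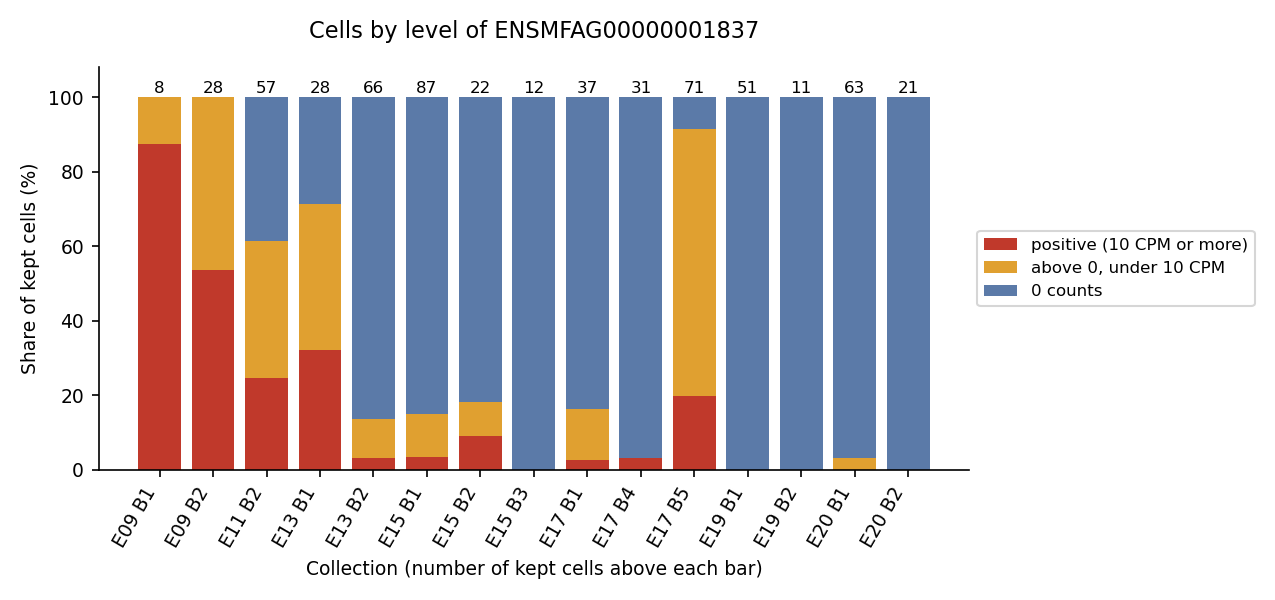
Share of kept cells (y axis, %) that were positive, low or at 0 counts of ENSMFAG00000001837 in each of the 15 collections (x axis), with the number of kept cells above each bar. Positive cells make up 87.5% of E09 B1 and 0 of the 4 collections of days 19 and 20, and E17 B5 has 51 low cells of 71, against 5 of 37 in E17 B1 and 0 of 31 in E17 B4.

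The comparison rested on E11 B2, E13 B1 and E17 B5, which held at least 5 cells of each kind, 37 positive and 36 negative cells in all. A call of 0 depends on depth. The median total count of negative cells was 7340914 in E11 B2, 879294 in E13 B1 and 1327098 in E17 B5. In the shallowest negative cells 3 counts would equal 4.59, 27.9 and 9.52 CPM, so at least 1 cell of E13 B1 called negative could hold the ID above 10 CPM.

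Depth, the number of detected IDs and the weight of the most abundant IDs could not be told apart from the spread between collections, of which 3 are too few for an exact test to reach 0.05. The median log10 total count was higher in positive cells in 3 of 3 collections, at 6.90 against 6.87 in E11 B2, 6.37 against 5.94 in E13 B1 and 6.17 against 6.12 in E17 B5. The mean difference was 0.17 ± 0.22 (SD, n = 3; exact two-sided sign-flip test, p = 0.25, adjusted p = 0.75 over 3 measures). With 3 collections 0.25 is the smallest p this test can give. With the mean over cells in place of the median the difference was 0.07 ± 0.20, higher in 2 of 3 collections, with E17 B5 at -0.14.

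At an equal depth of 100000 counts, the median positive cell held 5562 detected IDs in E11 B2, 3607 in E13 B1 and 4487 in E17 B5, and the median negative cell 4087, 3842 and 4287. The difference was 479.7 ± 888.7 IDs (SD, n = 3), higher in 2 of 3 collections (exact sign-flip p = 0.75, adjusted p = 0.75), and without E11 B2 it turned to -17.8. At a depth of 500000 counts, which fewer cells reach, it was 484.7 and higher in 3 of 3, with E13 B1 moving from -235.6 to 309.8 IDs. The 10 most abundant IDs took 13.7%, 29.1% and 13.6% of the counts of the median positive cell and 20.8%, 21.4% and 30.2% of the median negative cell. That difference was -5.35 ± 12.2 percentage points (SD, n = 3), lower in 2 of 3 collections (exact sign-flip p = 0.75, adjusted p = 0.75), and without E17 B5 it turned to 0.270. Cells in which 1 ID took 25% or more of the counts were 1 of 37 positive and 8 of 36 negative cells, and 6 of the 8 were in E11 B2.

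Across all IDs, summed counts of positive and negative cells gave no ID past the threshold. Of 10719 IDs tested, edgeR's quasi-likelihood test with the collection as a block called 0 (0.0%), with a smallest adjusted p of 0.270. This fit had 2 residual degrees of freedom and 4.34 borrowed from the other IDs. Even an ID at -5.60 log2 units was not called (edgeR, adjusted p = 0.270), so 0 calls do not show that no ID differed. Before adjustment 365 IDs (3.41%) had p under 0.05, with 179 higher (1.67%) and 186 lower (1.74%) in positive cells. Other tools on the same collections gave other counts. DESeq2 called 564 of 11787 IDs (4.78%), 256 higher and 308 lower. limma, fitted to log2(CPM + 1) averaged over cells so that each cell weighs the same, called 27 of 10719 (0.252%), 21 higher and 6 lower. DESeq2 and limma shared 7 calls, 6 higher and 1 lower, which is 1.24% of the DESeq2 calls and 25.9% of the limma calls.

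The 3 collections differed from each other in what separated their positive cells. Across the 10719 IDs, the log2 differences of E11 B2 correlated at 0.0608 with those of E13 B1 and at 0.00932 with those of E17 B5, and E13 B1 and E17 B5 correlated at 0.170. These are descriptions over IDs measured in the same libraries, and IDs are not independent. An ID was at least 1 log2 unit higher in positive cells of all 3 collections in 218 cases (2.03%) and lower in 151 (1.41%). In E11 B2 12.1% of IDs were at least 1 log2 unit higher and 12.6% lower, while E13 B1 had 30.4% and 24.7% and E17 B5 33.3% and 20.9%. E11 B2, the deepest of the 3, thus had the fewest large differences in either direction. A term state by day was fitted as well, but each day had 1 collection, so a change with the day cannot be told apart from differences between collections. For this term edgeR called 0 of 10719 IDs (0.0%; smallest adjusted p 0.383, 328 at an unadjusted p under 0.05), and DESeq2 called 187 of 10424 (1.79%). Neither count answers whether the difference changed with the day.

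No ID met the rule for naming IDs, which asked for an edgeR call. The 4 IDs below were chosen after their values were seen, to show what single cells look like behind the tests, and they support no statement about the other IDs. Their p-values were among these values. DESeq2 and limma both called the 2 higher IDs, and ENSMFAG00000004039 had limma's smallest adjusted p (7.5e-05). The 2 lower IDs had edgeR's smallest adjusted p (0.270). The p-values printed for these IDs thus follow from the choice and are no evidence. The same holds for which tool called which ID. Their values are CPM in single cells, and TMM-scaled CPM (adjusted by edgeR's scaling factors) in sums.

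ENSMFAG00000004039 was high in nearly every positive cell of the 3 collections. In the 14 positive cells of E11 B2 it lay between 5.47 and 557 CPM with a median of 322, and in the 22 negative cells between 0.373 and 485 CPM with a median of 5.71. In E13 B1 positive cells lay between 1.26 and 1033 CPM (median 148) and negative cells between 1.35 and 142 CPM (median 4.66). In E17 B5 they lay between 7.62 and 2261 CPM (median 479) and between 0.367 and 1107 CPM (median 2.32). Single cells thus overlapped in all 3 collections, although 13 of 14, 8 of 9 and 13 of 14 positive cells reached 10 CPM, against 10 of 22, 3 of 8 and 1 of 6 negative cells.

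The sums of ENSMFAG00000004039 did not overlap between states, as in 3.81% of all tested IDs with positive sums higher. They were 307, 411 and 544 TMM-scaled CPM in positive cells and 104, 41.3 and 91.3 in negative cells, in the order E11 B2, E13 B1 and E17 B5. The edgeR log2 difference of the sums was 2.48 ± 0.50 (SE, adjusted p = 0.989), higher in 3 of 3 collections. On per-cell means limma gave 4.21 ± 0.67 log2 units (SE, adjusted p = 7.5e-05), and DESeq2 gave 2.45 (adjusted p = 0.0407). The negative sums rest on few cells: 1 cell gave 94.1% of the negative counts in E13 B1 and 98.6% in E17 B5.

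Low cells lay nearer to negative than to positive cells in the median of this ID. It was 3.88 CPM in E11 B2, 13.4 in E13 B1 and 6.51 in E17 B5. Of the low cells 28.6%, 63.6% and 43.1% reached 10 CPM, against 45.5%, 37.5% and 16.7% of negative cells. By that measure low cells lay between the other states in E13 B1 and E17 B5 but not in E11 B2. In the positive cells of day 9 the ID was mostly low, at medians of 0.172 CPM in E09 B1 and 2.69 CPM in E09 B2, with 2 of 7 and 7 of 15 cells at 10 CPM or more. The difference between day 9 and the later positive cells was not tested.

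ENSMFAG00000001018 was also higher in positive cells, and negative cells of E11 B2 held it as well. Positive cells lay between 124 and 500.4 CPM in E11 B2 (median 283), between 69.6 and 1474 in E13 B1 (median 583) and between 0 and 572 in E17 B5 (median 127). Negative cells lay between 0.718 and 478 CPM (median 60.9), between 1.08 and 447 (median 13.0) and between 0 and 147 (median 2.56). All 23 positive cells of E11 B2 and E13 B1 and 12 of the 14 in E17 B5 reached 10 CPM, and so did 14 of 22, 5 of 8 and 1 of 6 negative cells. Low cells had medians of 33.0, 9.28 and 22.4 CPM, but in E11 B2 they reached 1959 CPM, above every positive cell there. The sum of low cells in E11 B2 was 220 CPM, against 283 CPM in positive cells, both without TMM scaling. In E15 B3, which had no positive cell, negative cells reached 2156 CPM.

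Its sums were 261, 655 and 215 TMM-scaled CPM in positive cells and 99.4, 61.1 and 13.8 in negative cells, again without overlap. The difference was 2.95 ± 0.65 log2 units by edgeR (SE, adjusted p = 0.992), 3.74 ± 0.65 by limma (SE, adjusted p = 0.000267) and 2.92 by DESeq2 (adjusted p = 0.0193). In E17 B5 this ID and ENSMFAG00000004039 were unevenly spread among positive cells. The 8 cells with 100 CPM or more of the gating ID had medians of 384 and 897 CPM, and the 6 cells under 100 CPM had medians of 27.0 and 52.3 CPM. In E17 B5 depth moved with this split: the 6 cells under 100 CPM had a median total of 223089 counts, 4 of them under 300000, and the 8 others one of 1713988, none under 300000. ENSMFAG00000000002 moved with it too, at a median of 13678 CPM in the 6 cells and 191 CPM in the 8, and the part of either in the order was not tested. E13 B1 did not show this order: for ENSMFAG00000004039 its 4 cells above had a median of 93.8 CPM and its 5 cells below one of 305 CPM.

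ENSMFAG00000000002 was lower in the sums of positive cells. The sums were 1223, 3400 and 1353 TMM-scaled CPM in positive cells of E11 B2, E13 B1 and E17 B5 and 11921, 22921 and 9160 in negative cells, so the states did not overlap, as in 3.52% of all tested IDs with positive sums lower. The edgeR difference was -2.93 ± 0.30 log2 units (SE, adjusted p = 0.270), with -1.85 ± 0.38 by limma (SE, adjusted p = 0.00482) and -2.97 by DESeq2 (adjusted p = 0.00267). Few cells carried much of it. The median positive and negative cells of E11 B2 were close, at 1277 and 1341 CPM, while the highest negative cell there reached 201016 CPM. Medians were farther apart in E13 B1 (902 against 3286 CPM) and E17 B5 (431 against 5934 CPM). Without the cells in which 1 ID took 25% or more of the counts, the edgeR difference was -0.97 (adjusted p = 1.00) and that of limma -1.13 (adjusted p = 0.557).

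ENSMFAG00000001907 was lower in the sums of positive cells, and limma did not call it. Its sums were 1.67, 4.09 and 26.2 TMM-scaled CPM in positive cells and 34.7, 227 and 2551 in negative cells. The edgeR difference was -5.60 ± 0.61 log2 units (SE, adjusted p = 0.270), against -1.92 ± 0.72 by limma (SE, adjusted p = 0.286). DESeq2 gave -5.64 (adjusted p = 1.8e-08). A single cell held 89.0%, 85.2% and 82.8% of the negative counts of E11 B2, E13 B1 and E17 B5. The median was 13.1 CPM in negative and 2.95 CPM in positive cells of E13 B1 and 198 and 41.7 CPM in E17 B5, and in E11 B2 it was near 0 in both (0.0608 and 0 CPM).

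**Figure D3:**
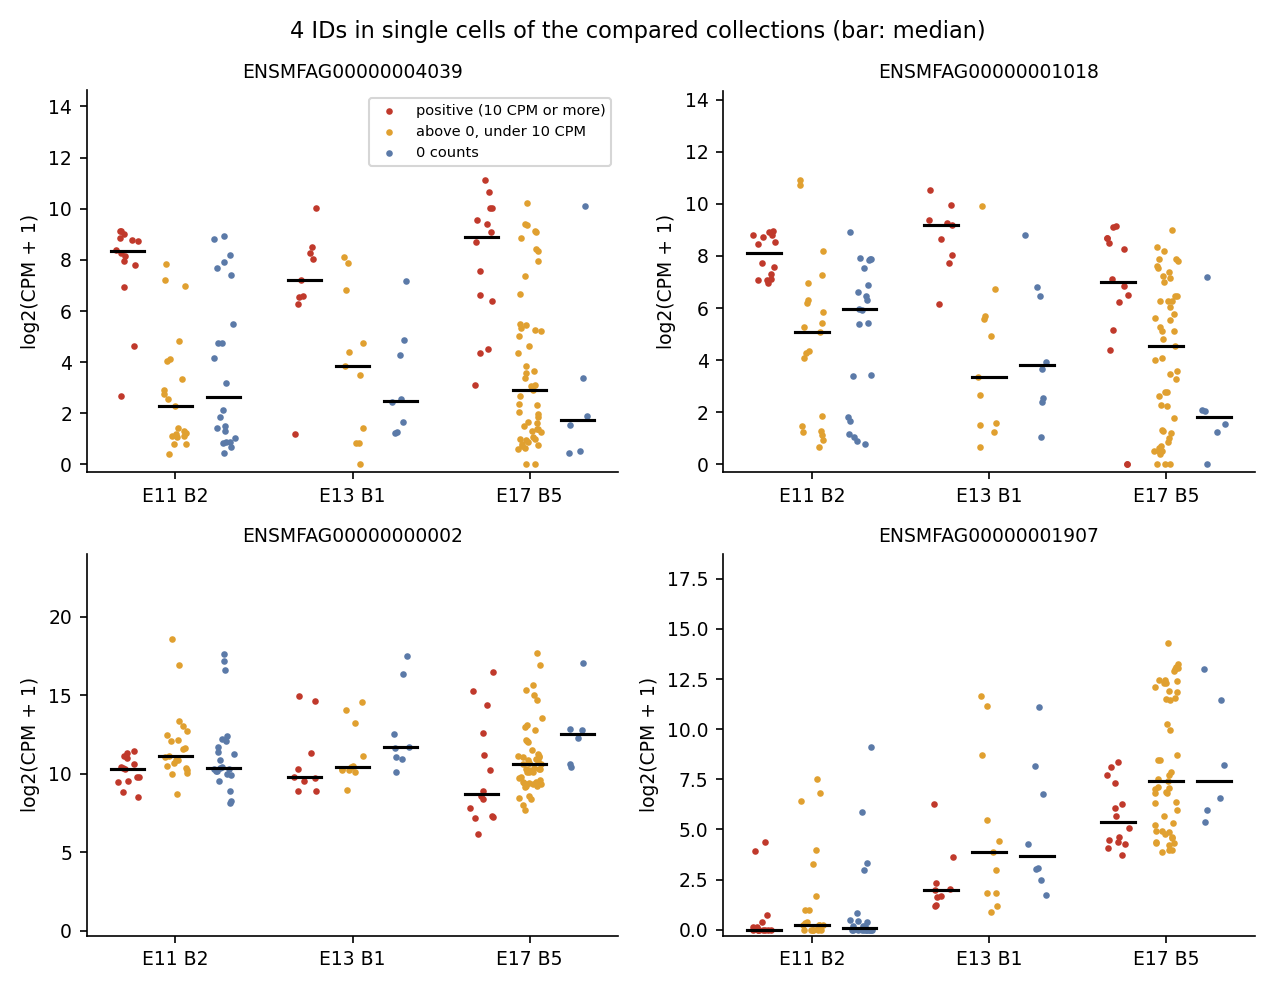
Level of 4 IDs (y axis: log2(CPM + 1)) in single cells of E11 B2, E13 B1 and E17 B5 (x axis), by level of the gating ID, with bars at medians. Positive cells have the highest medians for ENSMFAG00000004039 (322, 148 and 479 CPM) and ENSMFAG00000001018 (283, 583 and 127 CPM). In E11 B2 low cells reach 1959 CPM of ENSMFAG00000001018, above every positive cell there. Single negative cells stand far above their medians for ENSMFAG00000000002 and ENSMFAG00000001907.

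As a group, the 21 IDs that limma called higher were higher by a median of 2.01 log2 units of mean log2(CPM + 1) in E11 B2, 3.66 in E13 B1 and 4.08 in E17 B5, where the medians of all 10719 IDs were 0.69, 0.04 and 0.16. In E11 B2 2 of the 21 were lower and 1 was equal, while in the other 2 collections all 21 were higher. Of all 10719 IDs 81.0% were higher in E11 B2, 51.5% in E13 B1 and 56.1% in E17 B5. In E11 B2 the share of the 21 that were higher, 85.7%, was thus near that of all IDs. The limma fit leaned upward as a whole, with 938 IDs higher and 171 lower at an unadjusted p under 0.05. The 6 IDs called lower had medians of -0.89, -0.56 and -3.24. These differences made the calls and are no further support for them. The calls had limits: the fit had 2 residual degrees of freedom against 102 borrowed from the other IDs, and without the cells in which 1 ID took 25% or more of the counts limma called 0 IDs (smallest adjusted p 0.0818, 798 at an unadjusted p under 0.05). Without E13 B1 limma called 1 ID (0.00933%), without E17 B5 3 (0.028%), and without E11 B2 153 (1.43%). In each of these fits the degrees of freedom borrowed from the other IDs were infinite, so the calls rest on a borrowed spread. Adding collections with fewer positive cells, a choice made after seeing the data, gave limma 268 calls in the 6 collections with at least 2 cells of each state (2.5%) and 44 in the 8 with at least 1 (0.41%). The directions depended on the tool: of these limma calls 254 and 43 were higher in positive cells, while edgeR on sums of the same collections called 18 (0.174%) and 22 (0.218%) IDs, 16 and 21 of them lower.

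Collections outside the comparison gave a look at positive cells that the calls had not used. In E13 B2, with 2 positive and 57 negative cells, 20 of the 21 IDs were higher in positive cells (median 4.70), against 63.6% of all tested IDs. In E15 B1, with 3 positive cells, all 21 were higher (median 4.87), against 54.5%. In E15 B2, with 2 positive cells, 19 were higher, 1 lower and 1 equal (median 4.31), against 34.4%. The positive cell of E17 B4 was higher in 16 of 21 (median 5.82), against 31.1%. In these 4 collections most of the 21 IDs lay on the same side as in the 3 used for the calls. The 179 IDs that were higher on sums at an unadjusted p under 0.05 by edgeR gave lower shares. Of those detected there, 60.8% were higher in sums of positive cells in E13 B2, 74.0% in E15 B1, 68.7% in E15 B2 and 38.1% in E17 B4 (median -0.49), against 41.3%, 40.6%, 30.5% and 22.8% of all IDs. Of the 186 IDs lower on sums, 91.3%, 87.1%, 96.9% and 94.7% of those detected were lower in the same 4 collections. Among all IDs these shares were 58.7%, 59.4%, 69.5% and 77.2%. In E17 B1 11.8% of the higher list were higher and 76.6% of the lower list lower, against 13.4% and 86.6% of all IDs.

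The positive cell of E17 B1 went the other way. It was higher in 1 of the 21 IDs and lower in 20 (median -0.99), and 21.1% of all tested IDs were higher in it. It held 0 counts of ENSMFAG00000004039 and of ENSMFAG00000001018 at a gating level of 158 CPM, whereas the positive cell of E17 B4 held 4101 and 594 CPM of them at 117 CPM. The 2 cells differed in depth, with 442556 counts in that of E17 B1 and 11210073 in that of E17 B4. Negative cells of E17 B1 had a median of 860532 counts, and the part of depth was not tested. The 6 IDs called lower were lower in 5 of 6 cases in E13 B2 (34.4% of all tested IDs), in 6 of 6 in E15 B1 (45.2%), E15 B2 (52.9%) and E17 B4 (65.2%), and in 1 of 6 in E17 B1 (75.9%). With 1 to 3 positive cells per collection none of these counts was tested.

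**Figure D4:**
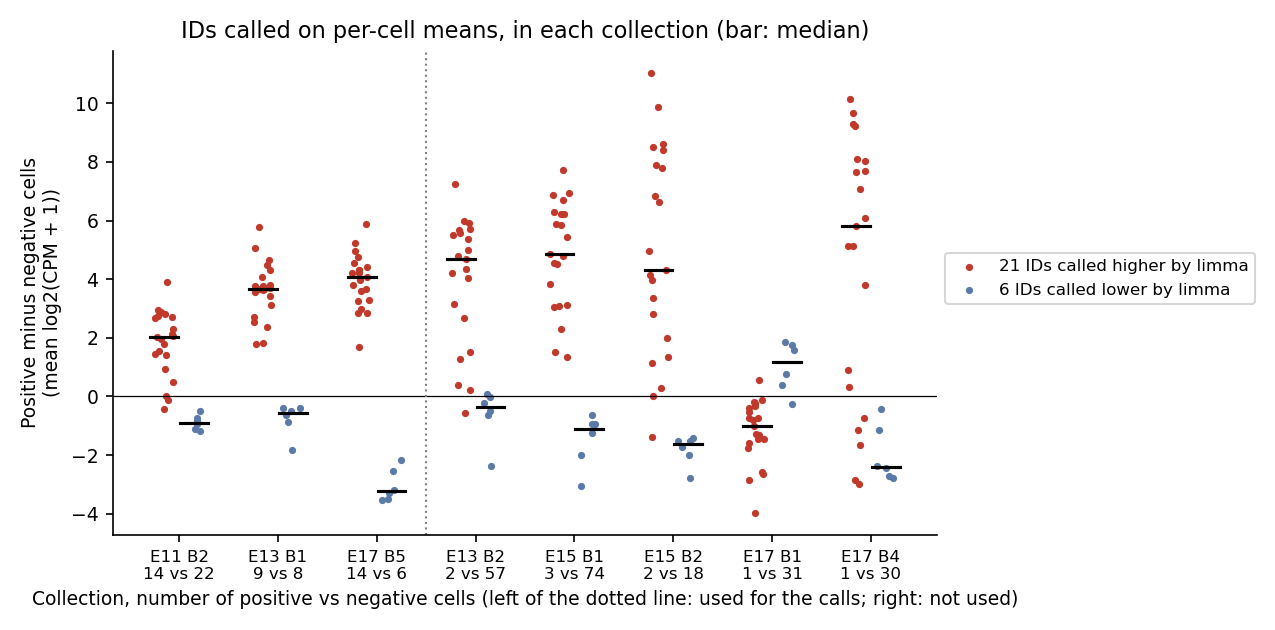
Difference between positive and negative cells (y axis: mean log2(CPM + 1), positive minus negative) in 8 collections (x axis) for the 21 IDs called higher and the 6 called lower by limma, each point 1 ID, with bars at medians. Outside the comparison, 20, 21, 19 and 16 of the 21 lie above 0 in E13 B2, E15 B1, E15 B2 and E17 B4, and 1 of 21 in E17 B1.

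In the 3 compared collections low cells lay nearer to negative than to positive cells in the 21 IDs that limma called higher. These had median differences between low and negative cells of 0.16 in E11 B2, 0.73 in E13 B1 and 0.91 in E17 B5, against 2.01, 3.66 and 4.08 for positive cells. The differences of positive cells chose these IDs, so the nearness is partly set by that choice and is a description. For all tested IDs the medians between low and negative cells were 0, 0 and 0.44, and in E17 B5 71.7% of all IDs were higher in low cells. The 6 lower IDs were higher in low than in negative cells by a median of 0.20 in E11 B2 and 0.18 in E13 B1, and lower by a median of -1.37 in E17 B5. On sums, the 179 IDs higher by edgeR at an unadjusted p under 0.05 put low cells closer to the middle in E13 B1 (median 1.17 above negative and -1.39 from positive cells) and E17 B5 (1.54 and -1.67) than in E11 B2 (0.12 and -0.86). Medians of all tested IDs on sums, low minus negative cells, were 0.22 in E13 B1, 0.44 in E17 B5 and -0.01 in E11 B2. The 2 low cells of E20 B1, a collection with no positive cell, were higher than its negative cells in 19 of the 21 IDs (median 3.71). Of all tested IDs 48.1% were higher in these 2 cells (median -0.03). At day 9, where only low cells could serve for comparison, 15 of the 21 were higher in positive than in low cells of E09 B2 (median 1.31), which is 71.4% against 65.7% of all tested IDs. In E09 B1, with 1 low cell, 13 of 21 (61.9%) were higher, against 49.3%. All tested IDs thus leaned the same way there.

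Positive cells also lay near each other in overall expression. Cells were thinned to 100000 counts, the gating ID was left out, and the 5 nearest neighbours of each cell were found in 20 components of the 2000 most variable IDs. Within their own collection, 61.4% of the neighbours of positive cells were positive in E11 B2, 51.1% in E13 B1 and 47.1% in E17 B5, where the numbers of cells alone give 23.2%, 29.6% and 18.6%. For low cells the shares were 15.2%, 23.6% and 16.1%, where the numbers give 25.0%, 33.3% and 20.0%. For negative cells they were 25.5%, 22.5% and 23.3%, where the numbers give 25.0%, 33.3% and 20.0%. Low and negative cells thus had fewer positive neighbours than positive cells did, with no order between the 2 that was tested. In E09 B2 74.7% of the neighbours of positive cells were positive against 51.9% by number, and in E09 B1, with 8 cells, 80.0% against 85.7%.

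Among neighbours taken from other collections, the share of positive cells varied. It was 85.7% for E09 B1, 64.0% for E09 B2, 60.0% for E15 B1, 52.9% for E17 B5 and 60.0% for the positive cell of E17 B4. It was lower for E11 B2 (15.7%), E13 B1 (17.8%), E13 B2 (20.0%) and E15 B2 (20.0%), and 0 for the positive cell of E17 B1. The numbers of cells give between 9.38% and 12.8%. Positive cells of E11 B2, which had mostly positive neighbours in their own collection, thus had few elsewhere. For negative cells the share was 6.36% in E11 B2, 17.5% in E13 B1 and 13.3% in E17 B5. For low cells of these collections it was 9.52%, 14.5% and 15.3%. Positive and negative cells of E13 B1 were thus alike in this share. At day 9 it was 100% for the 1 low cell of E09 B1 and 15.4% for low cells of E09 B2.

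Positive cells were also more alike in pairs. Over the 2000 variable IDs, the mean correlation between 2 positive cells was 0.536 in E11 B2, 0.415 in E13 B1 and 0.305 in E17 B5, between 2 negative cells 0.219, 0.111 and 0.0125, and between a positive and a negative cell 0.293, 0.185 and 0.0207. Cells of a collection share their preparation, and neighbours and correlations were not tested. The positive cell of E17 B1 correlated at 0.433 on average with the negative cells of its collection, whose mean among themselves was 0.501.

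**Figure D5:**
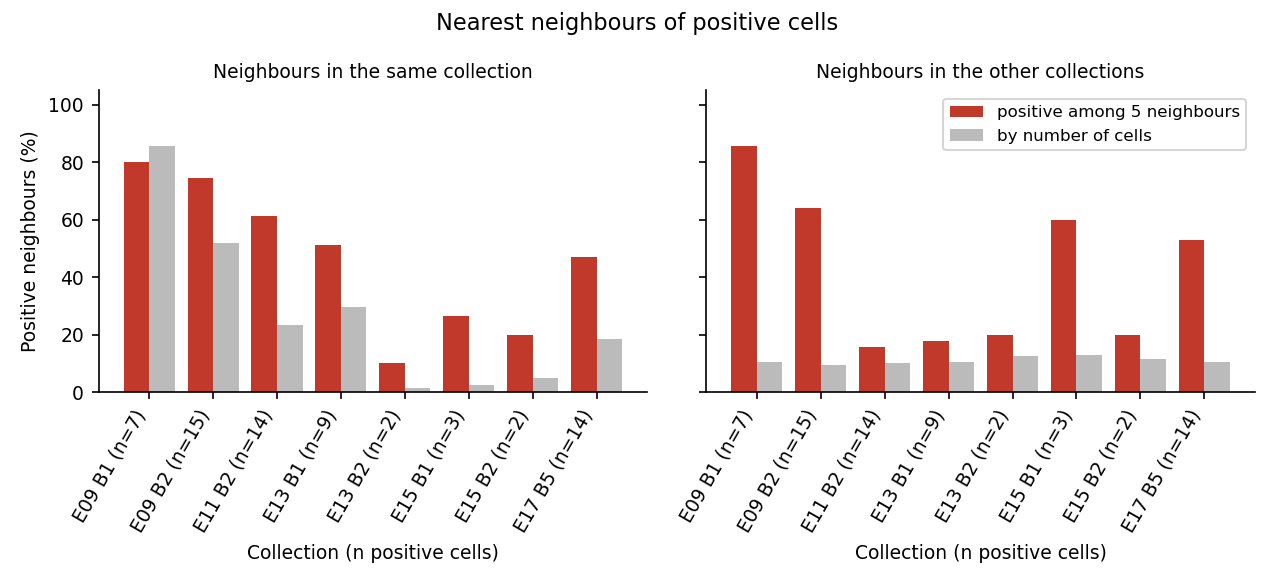
Share of the 5 nearest neighbours of positive cells that were positive (y axis, %), with neighbours taken from the same collection (left) or the other collections (right), by collection with its number of positive cells (x axis). Grey bars give the share by numbers of cells: in E11 B2, E13 B1 and E17 B5 the neighbours in the same collection were positive in 61.4%, 51.1% and 47.1% of cases against 23.2%, 29.6% and 18.6%.

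Another 2 IDs of the series were set beside the gating ID. ENSMFAG00000038308 was at 10 CPM or more in 11 of 68 positive and 40 of 402 negative cells, and ENSMFAG00000042357 in 4 of 68 positive and 189 of 402 negative cells. These totals mix collections: ENSMFAG00000042357 was at 10 CPM or more in all 51 negative cells of E19 B1, 30 of 31 in E17 B1 and 42 of 61 in E20 B1, which held 1 positive cell between them. Within the compared collections it was at that level in 2 of 14 positive and 3 of 22 negative cells of E11 B2, in 0 of 9 and 0 of 8 of E13 B1, and in 1 of 14 and 3 of 6 of E17 B5. For ENSMFAG00000038308 these counts were 6 of 14 and 4 of 22, 0 of 9 and 0 of 8, and 5 of 14 and 1 of 6. In E17 B5 24 of 51 low cells held ENSMFAG00000038308 at that level. Neither ID was called in the comparison (edgeR, adjusted p = 0.999 for both).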

How the data were processed

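The authors deposited estimated counts per gene ID and cell, not normalized, of which 2.23% were not whole (tolerance 1e-06). Per the labels' protocols, single cells entered SMART-seq2 libraries for BGISEQ-500. The genome build is not given in the sources used here, and STAR 2.3.4 and RSEM were used, per the submitters' processing notes. The members, lists and tests were chosen with earlier results of these data known.

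Estimated counts were rounded and summed per collection and state, giving sums of 8636644 to 139965276 counts. The gating ID was left out. Sums entered edgeR 4.0.16 (TMM factors of 0.856 to 1.21, filterByExpr, quasi-likelihood test, Benjamini-Hochberg adjustment, threshold 0.05; R 4.3.3) with the collection as a block. Both states come from the same collections, so the block pairs them by design. DESeq2 1.42.0 and limma 3.58.1, the latter with an offset of 1 CPM on the IDs of the edgeR filter, were alternatives. IDs were to be named with adjusted p under 0.05, a log2 difference of at least 1, a mean log2 CPM of at least 5 and 1 direction in all collections, at most 2 each way. Fits were tested on simulated data. Thinning used seed 1. Other scalings, filters, thresholds and left-out collections were tried as well.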

Additional observations from a re-analysis of the deposited data

How the results depend on the processing

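edgeR called 0 IDs with RLE factors, with total counts alone, with 50 CPM as the positive level (which also drops E11 B2) and with 4000 detected IDs. The same held with 500000 counts per cell, with thinned cells and without cells dominated by 1 ID. Leaving out collections with dots in their titles also gave 0, but here it removes E13 B1 alone and is the same fit as leaving out that collection. Without the collection as a block it also called 0 (no replicate block, smallest adjusted p 1.00). It called 6 IDs without a filter, 1 with low cells added to the negative cells (which also brings in E09 B2) and 3 with at least 3 cells per state (which adds E15 B1). Alternatives chosen after seeing the data gave 18 calls with at least 2 cells (6 collections; 2 higher, 16 lower, median ID at -0.36) and 22 with at least 1 cell (8 collections; 1 higher, 21 lower, median ID at -0.92). Leaving out 1 collection gave 0 to 37 calls, with 37 without E11 B2. DESeq2 gave 564 calls, and 187 for the term state by day. limma, with 27 calls, gave 268 with at least 2 cells (24 of the 27 among them), 44 with at least 1 cell (8 of the 27) and 30 with thinned cells (23 of the 27). It gave 1 to 153 with 1 collection left out and 0 without dominated cells, all chosen after seeing the data. With thinned cells and with 1 collection left out, the degrees of freedom that limma borrowed from the other IDs were infinite. The cause of the differences between these counts of calls was not tested. Without 1 collection the difference in log10 total counts lay between 0.04 and 0.24 (0.07 with means over cells), that in detected IDs between -17.8 (reversed, without E11 B2) and 837, and that in the share of the 10 most abundant IDs between -11.9 and 0.270 (reversed, without E17 B5; -0.41 for the single most abundant ID). A positive level of 100 CPM and a minimum of 10 cells left 1 collection each and could not be fitted, nor could the term state by day with 1 collection left out. Depth limits the call of 0: in the shallowest negative cell of E13 B1, 3 counts equal 27.9 CPM.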
